A study of Mus musculus with 7 samples.

Results

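The 10 genes described here encode the Runx transcription factors Runx1, Runx2 and Runx3, their shared partner Cbfb, the Groucho corepressors Tle1, Tle2, Tle3 and Tle4, and the ETO corepressors Runx1t1 and Cbfa2t3. They were taken by symbol from the deposited table of 29869 genes, and all 10 were in it. Total RNA was sequenced after Illumina TruSeq library preparation. Whole soleus, a slow-twitch hindlimb muscle, was taken from mice 60 days old. The libraries labelled mdx/Runx1f/f came from 3 animals that carried the dystrophin mutation mdx, a model of Duchenne muscular dystrophy, together with floxed Runx1 alleles. The libraries labelled mdx came from 4 animals with the mdx mutation, which both groups therefore share. The labels name no Cre driver, no sex and no part of Runx1 that lies between the loxP sites. Between 16218306 and 20847902 reads were counted per library.

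The labels of this series disagree with each other. The sample titles give 3 libraries labelled mdx/Runx1f/f and 4 labelled mdx, while the series' design text counts 4 and 3. The description field ties most animal numbers to other samples than the titles do, and its numbers would put animals of both titles into each group. The titles were followed, and the groups are called by those labels throughout. Every direction below would turn round if the genotype names were exchanged. The animals' numbers fall into a lower series (358 to 363) and a higher one (373 to 375), each with libraries of both labels. Values within each series are therefore given beside the main results. The higher series holds only 1 library labelled mdx/Runx1f/f. Its values carry no spread between animals of that label and are given without a call. The muscle fibre genes Acta1, Ckm, Myh7, Tnnt1, Ttn and Des had a summed level of 63727 to 73487 CPM (counts scaled to a common library size) in the libraries labelled mdx/Runx1f/f and 77392 to 101464 CPM in those labelled mdx. Of these 6 genes edgeR called 0, limma-voom 0 and DESeq2 1, Myh7, with 1 at an unadjusted p below 0.05. Their edgeR log2 fold changes were uneven: Myh7 -1.15, Tnnt1 -1.02, Acta1 -0.31, Ttn -0.22, Ckm -0.0061 and Des 0.0047.

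Runx proteins bind DNA through the Runt domain, and Cbfb, which does not contact DNA itself, strengthens that binding. A short motif at the end of each Runx protein recruits Groucho corepressors, which carry no DNA-binding domain and reach genes through factors such as Runx, Hes and Tcf proteins. ETO proteins are a second corepressor family, known from the fusion of RUNX1 with RUNX1T1 in human acute myeloid leukaemia. In muscle, Runx1 is known to be induced by denervation and damage, while Runx2 is best known from bone and Runx3 from T and NK cells and sensory neurons.

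In edgeR's quasi-likelihood test, adjusted over all 14033 genes tested, 3 of the 10 genes passed an adjusted p below 0.05. Runx1, Runx3 and Tle3 rose in the libraries labelled mdx/Runx1f/f relative to mdx, and 0 of the 10 fell. Of all tested genes 6.95% were called, 5.10% as higher and 1.85% as lower. DESeq2 called 4 of the 10 genes, adding Runx2, against 16.0% of all genes, and limma-voom called 2, Runx1 and Runx3, against 7.30%. In 5 of the 10 genes, these 3 with Runx2 and Runx1t1, both groups' ranges were apart, which held for 27.4% of all tested genes. At an unadjusted p below 0.05 stood 6 of the 10 genes, against 29.5% of all tested genes, a share to be read beside every such count given for a list. The median log2 fold change of the 10 genes was 0.35, and that of all tested genes was -0.0016. In whole muscle, more cells of a type that carries a transcript and more transcript per cell cannot be told apart.

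**Figure D1:**
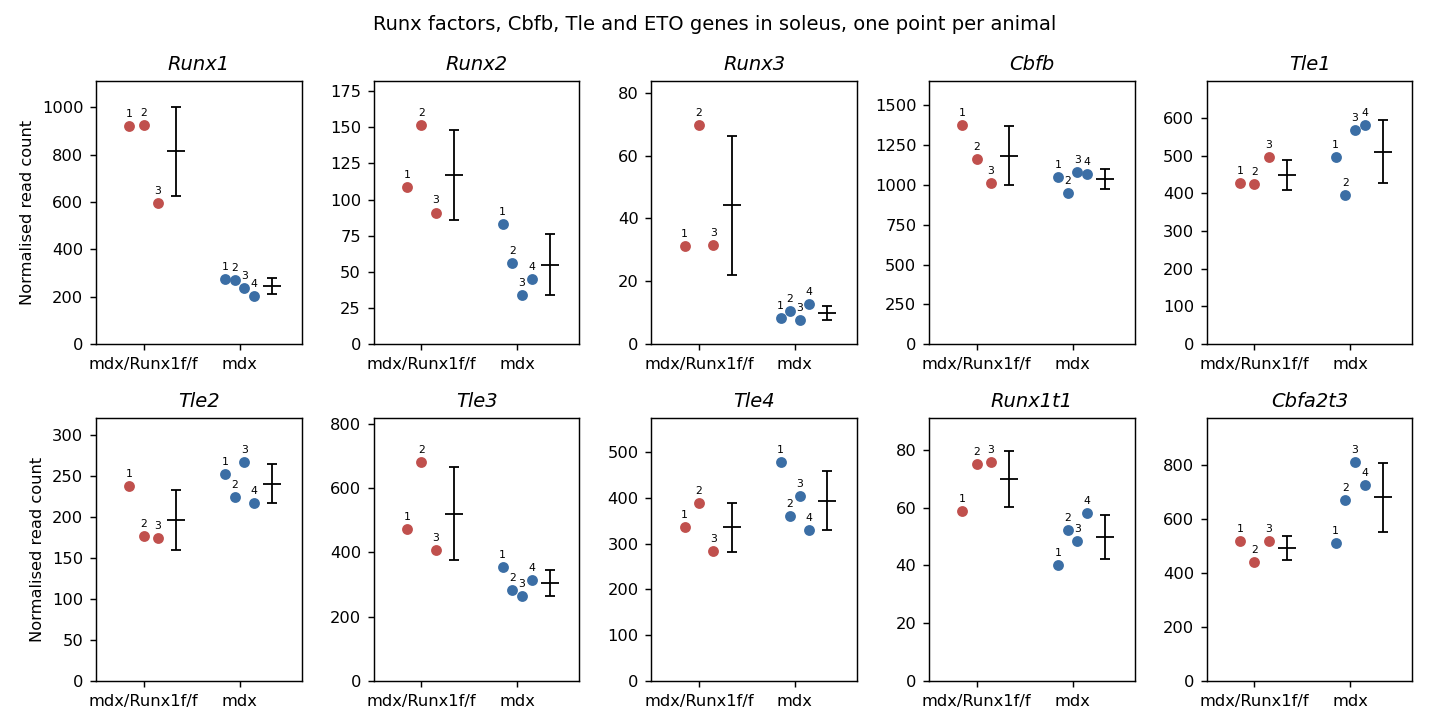
Normalised read count of each gene (vertical axis, from 0) in the 3 libraries labelled mdx/Runx1f/f and the 4 labelled mdx, 1 point per animal with its replicate number and, beside the points, the mean with its SD. The groups are apart in Runx1, Runx2, Runx3, Tle3 and Runx1t1 and overlap in the other 5 genes.

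Runx1, the floxed gene, comes first as a check of the labels. Its normalised read count, the authors' count divided by a size factor for the library, was 919, 925 and 596 in the libraries labelled mdx/Runx1f/f, against 274, 273, 235 and 201 in those labelled mdx. Every library of the floxed label stood above every other library, which is the opposite of a loss of the transcript under that label. Counts for the whole gene also cover exons that a deletion would spare, so they need not report on the floxed allele. The fold was 3.33 (log2 fold change 1.74, SE 0.18, edgeR adjusted p = 0.00795). By exact permutation of the labels (two-sided, log2 CPM) p was 0.0286, the smallest that 35 splits allow. The log2 fold change was 1.77 within animals 358 to 363, where the call was lost (2 against 2, edgeR adjusted p = 0.131). It was 1.46 within animals 373 to 375 (1 against 2). Runx1 kept its call in each of the 7 fits that left out 1 library, with log2 fold changes between 1.63 and 1.91.

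Runx3 was the scarcest Runx transcript. It was counted 32, 92 and 29 times in the libraries labelled mdx/Runx1f/f and 8, 10, 7 and 13 times in those labelled mdx, or 31.3, 69.8 and 31.4 against 8.45, 10.4, 7.73 and 12.8 as normalised read counts. Replicate 2 of the floxed label stood well above its group, and the groups did not overlap. The fitted fold was 4.47 (log2 fold change 2.16, SE 0.37, edgeR adjusted p = 0.0207). The log2 fold change was 2.43 within animals 358 to 363, where Runx3 was not called (edgeR adjusted p = 0.157). Within animals 373 to 375 it was 1.59. With all animals, the call stood in 4 of the 7 fits without 1 library. It was lost without mdx/Runx1f/f replicate 2, mdx replicate 2 or mdx replicate 3 (edgeR adjusted p = 0.0537, 0.0522 and 0.0666).

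Runx2, the master regulator of bone formation, had normalised read counts of 109, 152 and 91.1 in the libraries labelled mdx/Runx1f/f, against 83.5, 56.4, 34.2 and 45.4 in those labelled mdx. The groups did not overlap, but mdx replicate 1, at 83.5, lay close to the lowest library of the other label, at 91.1. The log2 fold change was 1.10 (SE 0.31, edgeR adjusted p = 0.0688), which missed the threshold, while DESeq2 on the same counts called it (adjusted p = 0.0148). So did edgeR with the animal number series as covariate (1.01, adjusted p = 0.0289) and without mdx replicate 1 (1.37, adjusted p = 0.0397). Within animals 373 to 375 the log2 fold change was 1.19. Runx2 was not called within animals 358 to 363 (0.91, edgeR adjusted p = 0.220) or in the other 6 fits without 1 library, the lowest of which was that without mdx/Runx1f/f replicate 2 (0.87, edgeR adjusted p = 0.218).

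Cbfb, the shared partner of the Runx proteins, was not called. Its normalised read counts were 1377, 1161 and 1012 in the libraries labelled mdx/Runx1f/f, against 1047, 949, 1083 and 1071 in those labelled mdx, and the ranges overlapped. The log2 fold change was 0.20 (SE 0.12, edgeR adjusted p = 0.301), and its sign differed between the lower and the higher animal number series (0.36 and -0.09).

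The first annotated promoters of Runx1, Runx2 and Runx3 share a tandem pair of Runx binding motifs, shown here because the groups were apart in all 3 Runx genes. Runx proteins recognise TGTGGT or TGCGGT, and both motifs were searched on both strands of RefSeq promoter windows (GRCm38.p6) that run from 250 bases before to 50 after a start. The motifs cannot match the same bases. Windows were found for 9 of the 10 genes, 13 in all, and 4 of these 13 held a match, against 22.4% of all 32851 windows. The stretches around the pair are given 5′ to 3′ on the gene's strand, with motif matches in capitals:
Runx1, chr16:92826025-92826051, minus strand: aaacaACCACAgaACCACAagttgggt
Runx2, chr17:44814583-44814609, minus strand: aaacaACCACAgaACCACAagTGCGGT
Runx3, chr4:135120506-135120532, plus strand: cctcaACCACAgaACCACAaggccagg
The longest run common to these 3 windows had 18 bases, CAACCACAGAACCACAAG. The core AACCACAGAACCACA occurred in 4 of the 32851 windows (0.0122%), those of Runx1, Runx2, Runx3 and the predicted gene Gm16225. This core was cut from the run that the 3 Runx windows share, so its presence in them was given beforehand.

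The pair does not sit at the same distance from the annotated start in the 3 genes. It spans bases 28 to 42 after the start in Runx1 and bases 23 to 37 after it in Runx2, whereas in Runx3 it lies before the start, at bases -135 to -121. Runx2 has a further match at bases -80 to -75 and one at bases 40 to 45. The 250 bases before the start of Runx3 (chr4:135120395-135120644, plus strand), which hold its pair in capitals, read:
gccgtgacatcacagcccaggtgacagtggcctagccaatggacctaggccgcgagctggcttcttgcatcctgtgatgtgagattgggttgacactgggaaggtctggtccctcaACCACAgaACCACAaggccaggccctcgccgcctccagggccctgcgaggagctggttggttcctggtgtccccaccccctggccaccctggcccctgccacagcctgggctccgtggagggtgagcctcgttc
The second annotated starts of Runx1 and Runx3 had 0 matches, and so had the windows of Cbfb, Tle1, Tle2, Tle3 and Tle4, while Cbfa2t3 had 1. A match is a run of letters and not a measured binding site, and gene counts do not tell which start a transcript came from.

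**Figure D2:**
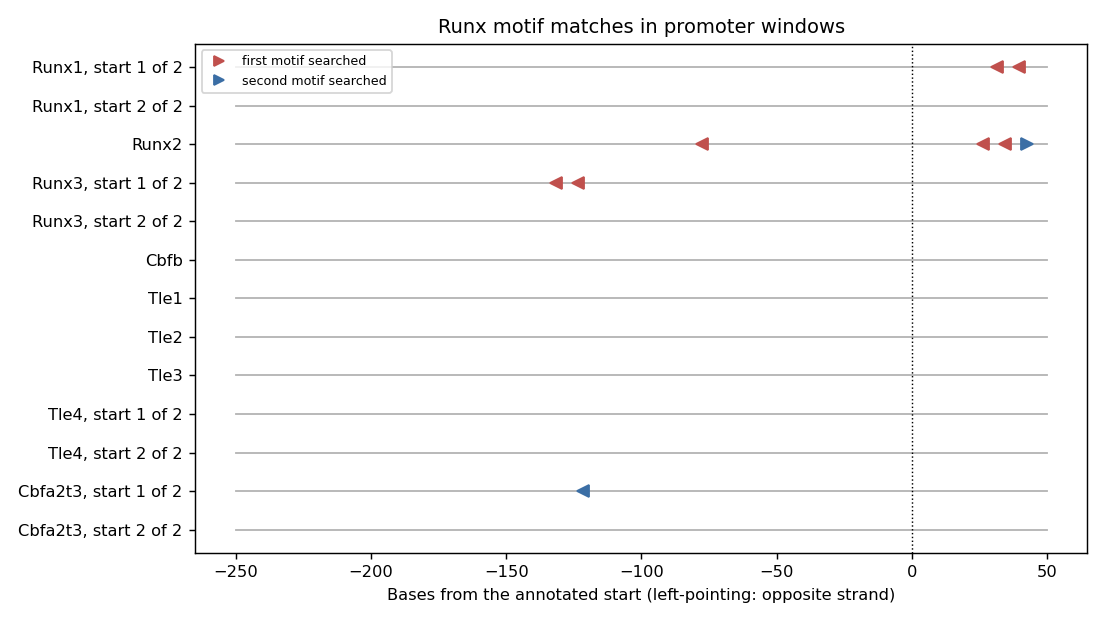
Matches to the 2 Runx motifs searched (first: red, second: blue) in the 13 promoter windows of 9 genes, by distance in bases from the annotated start. Left-pointing marks lie on the strand opposite to the gene. The close pairs of marks appear in the first windows of Runx1, Runx2 and Runx3.

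The balance among the 3 Runx genes was read from their shares of the counts. Runx1 took 83.5% ± 3.07 of their summed raw counts in the libraries labelled mdx/Runx1f/f (SD, n = 3) and 79.4% ± 4.27 in those labelled mdx (SD, n = 4). Runx2 took 12.1% ± 1.57 and 17.3% ± 4.31 (SD, n = 3 and 4), and Runx3 took 4.47% ± 1.56 and 3.28% ± 1.15 (SD, n = 3 and 4). None of these shares differed at an unadjusted p below 0.05 in two-sided exact permutation tests over samples (p = 0.229, 0.114 and 0.286 for Runx1, Runx2 and Runx3). In single libraries the share of Runx3 was read from few counts: it was 6.08% in mdx/Runx1f/f replicate 2 (95% Wilson interval 4.99% to 7.40%) and 4.94% in mdx replicate 4 (2.91% to 8.27%), intervals that overlap and that cover counting error only.

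The Groucho corepressors split between 1 gene that rose and 3 that were not called. Tle3 had normalised read counts of 471, 682 and 406 in the libraries labelled mdx/Runx1f/f, against 354, 284, 264 and 315 in those labelled mdx. The groups did not overlap, and mdx/Runx1f/f replicate 2 was again the highest library. The fold was 1.72 (log2 fold change 0.78, SE 0.19, edgeR adjusted p = 0.0480), which lies just inside the threshold. The call stood in 1 of the 7 fits without 1 library, the fit without mdx/Runx1f/f replicate 3, and was lost in the others and with limma-voom (adjusted p = 0.0516). The log2 fold change was 0.87 within animals 358 to 363, where Tle3 was not called, and 0.49 within animals 373 to 375.

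The other Groucho genes had fitted values below 0. Tle1 averaged 449 ± 40.05 normalised counts in the libraries labelled mdx/Runx1f/f (SD, n = 3) and 511 ± 84.5 in those labelled mdx (SD, n = 4), which is -0.18 on the log2 scale (edgeR adjusted p = 0.448). Tle2 averaged 196 ± 36.5 (SD, n = 3) and 240.4 ± 23.5 (SD, n = 4), at -0.29 (edgeR adjusted p = 0.249). Tle4 averaged 336 ± 53.0 (SD, n = 3) and 394 ± 64.8 (SD, n = 4), at -0.22 (edgeR adjusted p = 0.386). The groups overlapped in all 3 of these genes, so no difference beyond the spread between animals was shown.

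Because the 4 Groucho genes encode related corepressors, their balance was read within each library, which needs no scaling between libraries. Tle3 took 32.0%, 40.8% and 29.9% of the summed raw counts of Tle1 to Tle4 in the libraries labelled mdx/Runx1f/f, against 22.4%, 22.4%, 17.5% and 21.8% in those labelled mdx. The lowest share under the mdx/Runx1f/f label, 29.9% in replicate 3, had a 95% Wilson interval of 27.4% to 32.5%, and the highest under the mdx label, 22.4% in replicate 2, had one of 20.2% to 24.9%. The difference between group means was 13.2 percentage points (two-sided exact permutation test, p = 0.0286, the smallest p possible here, and 0.114 adjusted by Benjamini-Hochberg over the 8 shares tested), so it failed the correction. It was 13.98 points within animals 358 to 363 and 10.2 points within animals 373 to 375. The summed normalised count of the 4 genes was 1501 ± 159 (SD, n = 3) in the libraries labelled mdx/Runx1f/f and 1449 ± 135 (SD, n = 4) in those labelled mdx.

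**Figure D3:**
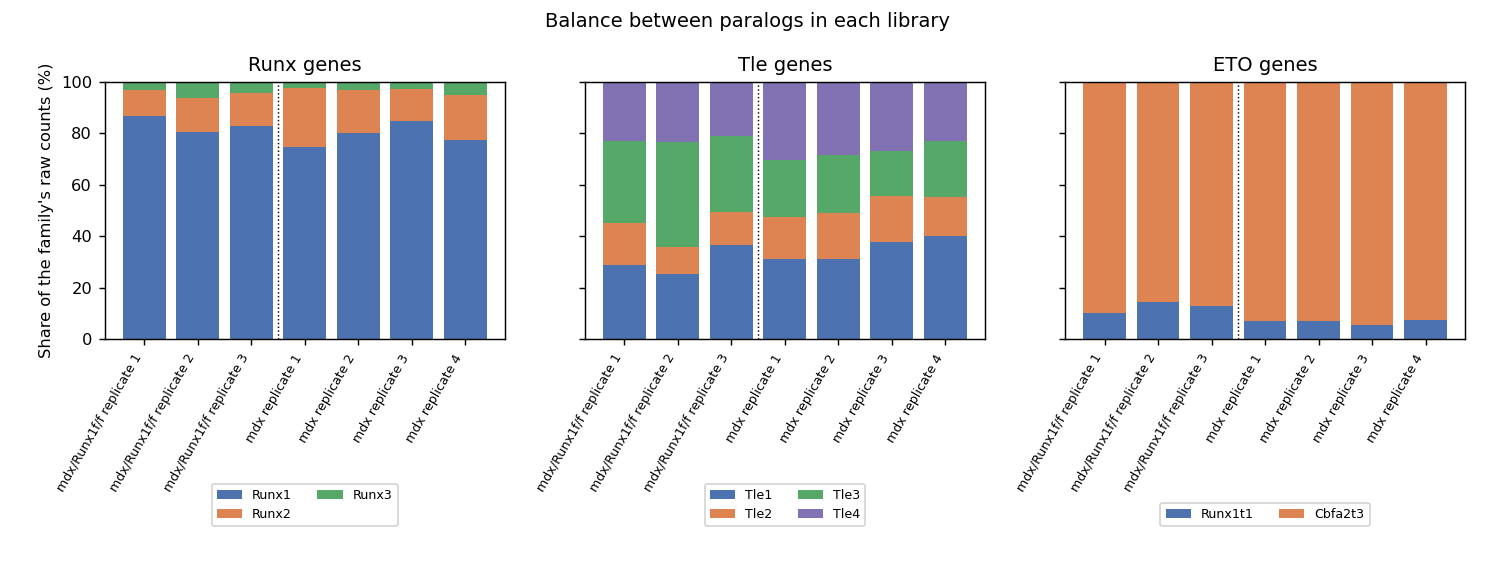
Share of each family's summed raw counts (percent, vertical axis) taken by each paralog in every library, with the libraries labelled mdx/Runx1f/f left of the dotted line and those labelled mdx right of it. Tle3 takes between 29.9% and 40.8% on the left and between 17.5% and 22.4% on the right, and Runx1 takes most of the Runx counts in all 7 libraries.

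The ETO genes had fitted values of opposite sign, and neither was called. Runx1t1 had normalised read counts of 58.8, 75.1 and 75.9 in the libraries labelled mdx/Runx1f/f, against 40.1, 52.2, 48.6 and 58.2 in those labelled mdx. Its groups just failed to touch, at 58.8 and 58.2, and the log2 fold change was 0.49 (SE 0.19, edgeR adjusted p = 0.135). Cbfa2t3, the ETO paralog best known from blood-forming cells, had 517, 439 and 517 normalised counts, against 510.3, 669, 812 and 727 in those labelled mdx. Of the mdx libraries, replicate 1 lay within the range of the other label, and the log2 fold change was -0.46 (SE 0.16, edgeR adjusted p = 0.108). Without mdx replicate 1 it was -0.58 and was called (edgeR adjusted p = 0.0450). As a share of the counts of both genes, Runx1t1 took 12.5% ± 2.21 in the libraries labelled mdx/Runx1f/f (SD, n = 3) and 6.90% ± 0.838 in those labelled mdx (SD, n = 4). That share differed at p = 0.0286 in the two-sided exact permutation test, the smallest p possible, and at 0.114 adjusted over the 8 shares, which failed the correction.

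**Figure D4:**
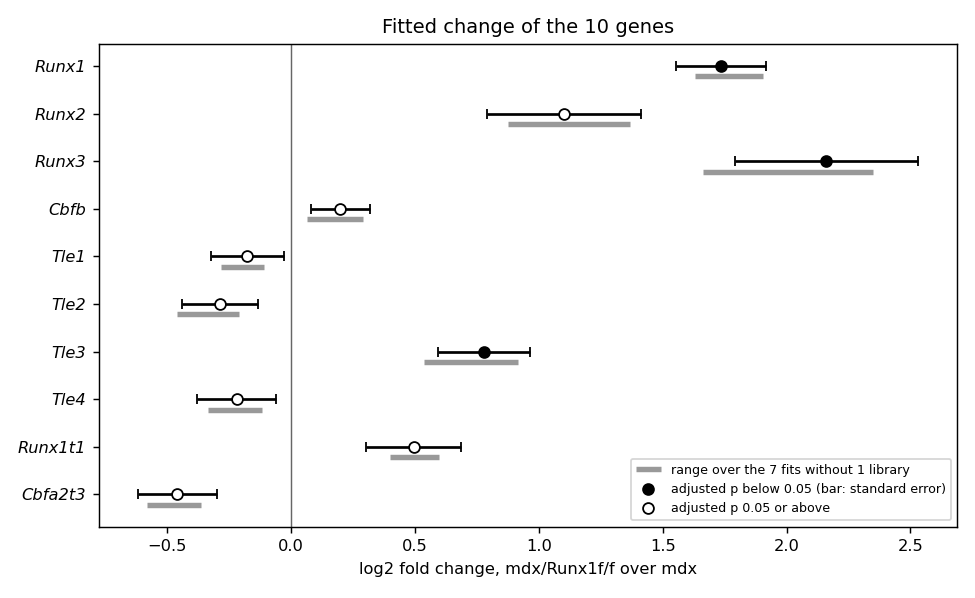
Fitted log2 fold change of each gene, libraries labelled mdx/Runx1f/f over mdx (horizontal axis), with its standard error. Filled points passed an adjusted p below 0.05 and open points did not, and the grey bar is the range over the 7 fits that left out 1 library each. Runx1, Runx3 and Tle3 are the filled points, and no grey bar crosses 0.

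The authors' deposited table, which takes the same direction, gives log2 fold changes of 1.604 for Runx1, 1.61 for Runx3, 0.91 for Runx2 and 0.71 for Tle3, each with an adjusted p below 0.05. In the same authors' deposited table Cbfa2t3 stands at -0.44 (adjusted p = 0.0557) and Runx1t1 at 0.45 (adjusted p = 0.0912). The authors' values for Runx1, Runx3, Runx2 and Tle3 each lie below the fitted 1.74, 2.16, 1.10 and 0.78. On the deposited counts DESeq2 1.42.0 gave 2.17 for Runx3. The authors' version was DESeq2 1.6.3 by the submitters' notes, and the cause of the difference was not tested.

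Levels of different genes were compared per kilobase of annotated exon, on the normalised count scale. In the libraries labelled mdx/Runx1f/f, Cbfb stood first at 406 ± 63.0, followed by Runx1 at 109 ± 25.2, Tle3 at 91.8 ± 25.5, Tle1 at 88.6 ± 7.89, Tle4 at 73.7 ± 11.6, Tle2 at 62.4 ± 11.6 and Cbfa2t3 at 61.7 ± 5.66 (SD, n = 3). Runx2 (16.5 ± 4.396), Runx3 (10.6 ± 5.31) and Runx1t1 (10.3 ± 1.43) followed at a distance (SD, n = 3). Ranges of neighbours overlapped all the way from Runx1 to Cbfa2t3 and again from Runx2 to Runx1t1, so the order of neighbours is not resolved. Farther apart in the order, the ranges of Runx1 and Tle1 lay wholly above those of Tle2 and Cbfa2t3, that of Tle3 above that of Cbfa2t3, and that of Runx2 above that of Runx1t1.

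In the libraries labelled mdx the order was different. Cbfb again stood first at 356 ± 20.9, but Tle1 (101 ± 16.6), Tle4 (86.4 ± 14.2), Cbfa2t3 (85.4 ± 15.95) and Tle2 (76.5 ± 7.48) came next, with overlapping ranges (SD, n = 4). Tle3 at 53.7 ± 6.93 and Runx1 at 33.0 ± 4.63 lay below them without overlap (SD, n = 4). Runx2 (7.74 ± 2.98) and Runx1t1 (7.36 ± 1.119) overlapped, and Runx3 was lowest at 2.36 ± 0.548 (SD, n = 4). Runx1 thus held rank 2 in the libraries labelled mdx/Runx1f/f and rank 7 in those labelled mdx. The exon lengths come from an annotation of another build than the authors used and count all basic isoforms together, so ranks of close neighbours may depend on it.

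The wider machinery around these genes was read from lists. Of 23 other cofactors of Runx and Groucho proteins, edgeR called 0, limma-voom 0 and DESeq2 1, and 3 had an unadjusted p below 0.05, with a median log2 fold change of -0.05. Those with the smallest p were Bmi1, a Polycomb subunit (-0.32), the histone deacetylase genes Hdac2 (-0.22) and Hdac3 (-0.17), and the arginine methyltransferase gene Prmt1 (-0.29). The third ETO paralog Cbfa2t2 stood at -0.02 and the short Groucho-related gene Aes at 0.01, both named here after their values were seen.

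Of 14 factors that recruit Groucho proteins, 13 were tested and 1 rose, where edgeR called 5.10% of all tested genes as higher. An unadjusted p below 0.05 was found in 3 of the 13, where 29.5% of all tested genes had one. Their median log2 fold change was 0.07. The factor that rose was Tcf7l1, a Wnt pathway repressor that binds Groucho in place of beta-catenin. It averaged 237 ± 28.1 normalised counts in the libraries labelled mdx/Runx1f/f (SD, n = 3) and 137 ± 21.8 in those labelled mdx (SD, n = 4), with an edgeR adjusted p of 0.0314 at a log2 fold change of 0.80, and its call stood in 1 of the 7 fits without 1 library. On the same log2 scale its relative Tcf7l2 stood at 0.38 and the Notch target Hes1 at -0.39, and neither was called.

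Of 15 transcription factors that bind beside Runx proteins or share their complexes, edgeR called 0, limma-voom 0 and DESeq2 4, and 5 had an unadjusted p below 0.05, where 29.5% of all tested genes did (median -0.0050). The myeloid factor gene Sfpi1, now named Spi1, stood at 1.48, Cebpa at 1.22, Lmo2 at 0.35 and the Tgf-beta signal carrier Smad3 at -0.83 (edgeR adjusted p between 0.0658 and 0.115).

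Of 18 genes known as Runx targets, mostly from blood and bone cells, 10 were tested and 2 rose, the integrin gene Itgal (log2 fold change 1.85, edgeR adjusted p = 0.0114) and Cd4 (2.42, edgeR adjusted p = 0.0088), whose silencer in T cells is bound by Runx proteins. Cd4 averaged 50.8 ± 11.4 normalised counts in the libraries labelled mdx/Runx1f/f (SD, n = 3) and 9.43 ± 2.45 in those labelled mdx (SD, n = 4). The macrophage growth factor receptor gene Csf1r had 1.73 (edgeR adjusted p = 0.0573) and the collagenase gene Mmp13 had 4.88 with a standard error of 1.23 (edgeR adjusted p = 0.0536), with 36.2 to 627 normalised counts in the libraries labelled mdx/Runx1f/f and 0 to 12.8 in those labelled mdx. The median of the 10 was 1.16, and 6 of them had an unadjusted p below 0.05, where 29.5% of all tested genes did. Of all tested genes edgeR called 5.10% as higher. Csf1r is also counted among the macrophage markers below, and Sfpi1 of this list among the factors above. Of the 8 that were too low to test, Bglap2 and Il3 had no count in any library.

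Of 12 genes that respond to denervation, edgeR called 0, limma-voom 0 and DESeq2 2, and 5 had an unadjusted p below 0.05, where 29.5% of all tested genes did (median 0.12). The myogenic factor gene Myog stood at 1.17, the embryonic myosin gene Myh3 at 1.17, the adhesion molecule gene Ncam1 at 0.59 and Dach2, a repressor of Myog, at -0.95. The summed level of the list was 1154.5, 496 and 1122 CPM in the libraries labelled mdx/Runx1f/f, against 512 to 745 CPM in those labelled mdx. Myh3 weighs heavily in this sum, with means of 7047 normalised counts under the mdx/Runx1f/f label and 3158 under the mdx label.

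Markers of other cell types were set beside the Runx genes by their calls and summed levels. Of 10 macrophage markers 4 rose and 0 fell, among them Ptprc (log2 fold change 1.70), C1qa (1.75), C1qb (1.84) and Cx3cr1 (1.54), and the call of Cx3cr1 was the one of these 4 that stood in all 7 fits without 1 library. Their summed level was 967, 1924 and 704 CPM in the libraries labelled mdx/Runx1f/f, against 722, 418, 169 and 212 CPM in those labelled mdx. These sums overlapped, but taken alone 7 of the 10 markers were apart between the groups, against 27.4% of all tested genes. At an unadjusted p below 0.05 stood 8 of the 10, against 29.5%. DESeq2 called 6, against 16.0%, and edgeR called 5.10% of all tested genes as higher. Lyz2, named after its values were seen, had the highest mean count of the list. Its ranges overlapped, at 5384 to 17567 and 1379 to 6554 normalised counts. The macrophage sum of mdx/Runx1f/f replicate 3 (704 CPM) lay just below that of mdx replicate 1 (722 CPM). In the same libraries Runx1 had 596 and 274 normalised counts, Runx3 31.4 and 8.45, and Tle3 406 and 354. Their near sums do not mean that single macrophage markers were matched. Cx3cr1 had at least 281 normalised counts under the mdx/Runx1f/f label and at most 139 under the mdx label. For C1qa these limits were 1331 and 892. Both libraries are 1 animal each, from different animal number series. The part of macrophages in the values of Runx1, Runx3 and Tle3 was not tested.

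Of 10 markers of fibro-adipogenic progenitors and bone cells, 7 were tested and 5 rose, Pdgfra (1.08), Dpt (1.27), Lum (1.28), Dcn (1.121) and Col1a1 (1.47), the last of them named after its values were seen. Their summed level was 3360 to 3838 CPM in the libraries labelled mdx/Runx1f/f and 1125 to 1704 CPM in those labelled mdx, without overlap. Over all tested genes edgeR called 5.10% as higher. DESeq2 called all 7 tested markers, against 16.0% of all genes. All 7 had an unadjusted p below 0.05, against 29.5% of all tested genes. In all 7 the groups were apart, against 27.4%. The bone markers that often accompany Runx2, Bglap, Ibsp and Sp7, were too low to test. Their part, and that of the progenitors, in the values of Runx1, Runx2 and Runx3 was not tested.

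T and NK cell markers were near the limit of detection. Of 9 markers 2 were tested and 1 rose, where edgeR called 5.10% of all tested genes as higher. The gene that rose was Klrk1 (log2 fold change 1.53, edgeR adjusted p = 0.0443), a call lost whichever library was left out. Cd2 stood at 1.44 without a call. The summed level of the 9 markers was 3.38, 3.21 and 5.18 CPM in the libraries labelled mdx/Runx1f/f. It was 1.14 to 1.71 CPM in those labelled mdx, without overlap. Cd3d and Cd8a averaged 2.31 and 3.69 normalised counts in the libraries labelled mdx/Runx1f/f, against 0.523 and 1.29 in those labelled mdx, and the highest T and NK cell sum was in replicate 3 while the highest Runx3 was in replicate 2. The part of these cells in the level of Runx3 was not tested.

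Markers of satellite cells and of endothelium had 0 calls by edgeR and 0 by limma-voom. DESeq2 called 1 of the 8 satellite cell markers and 0 of the 7 endothelial ones, and 2 and 0 of them had an unadjusted p below 0.05. Satellite cell markers summed to 248, 183 and 173 CPM in the libraries labelled mdx/Runx1f/f, against 142 to 171 CPM in those labelled mdx. These sums narrowly failed to overlap, at 173 and 171 CPM, but taken alone each of the 8 markers overlapped between the groups. By smallest p the satellite cell markers were led by Myog (1.17), Myod1 (0.75), Myf5 (-0.34) and Calcr (-0.44) on the log2 scale, of which DESeq2 called Myog. Among the endothelial markers the Tie receptor genes Tie1 and Tek stood at -0.26 and 0.18, Eng at 0.23 and the Vegf receptor gene Kdr at -0.48. Of 6 markers of erythroid cells and megakaryocytes, blood lineages in which Cbfa2t3 is active, 3 were tested, edgeR called 0, limma-voom 0 and DESeq2 1, and 1 had an unadjusted p below 0.05. These 6 summed to 14.3 to 48.5 CPM in the libraries labelled mdx/Runx1f/f, against 6.04 to 31.2 CPM in those labelled mdx, with overlap, and the log2 fold changes were 0.93 for the platelet integrin gene Itga2b, 0.85 for Pf4 and 0.46 for Epor.

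**Figure D5:**
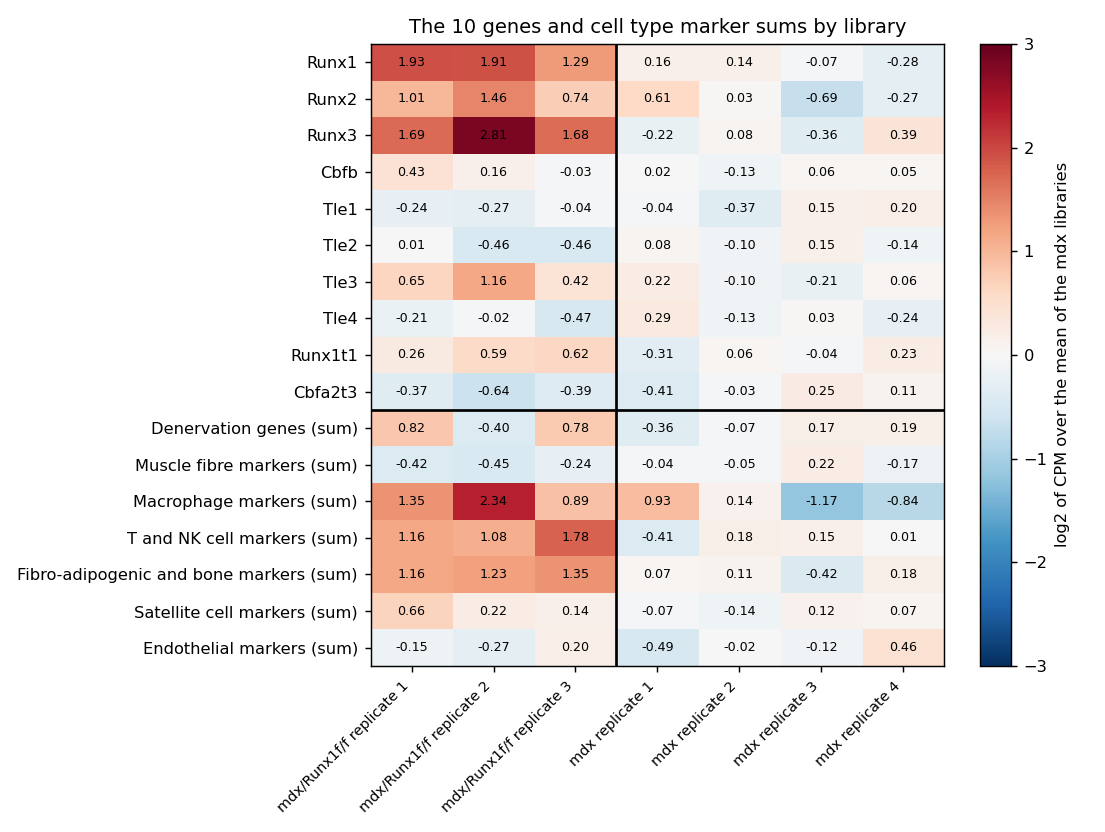
Level of each of the 10 genes and summed level of 7 marker lists in every library, as the log2 of CPM over the mean of the 4 libraries labelled mdx (colour, value in each cell), with the libraries labelled mdx/Runx1f/f left of the vertical line. Runx1, Runx2, Runx3, Tle3, Runx1t1 and the sums of macrophage, fibro-adipogenic, T and NK cell and satellite cell markers are above 0 in all 3 left-hand libraries, and the macrophage sum also reaches 0.93 in mdx replicate 1.

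The genes whose profile over the 7 libraries lay closest to each gene that rose were found by the root mean square difference of centred log2 CPM, over 12143 candidate genes. Closest to Runx1 were Lyz1 (0.172), Bmper (0.194), C1qtnf7 (0.210) and Clec10a (0.216), against a median of 0.908 over all candidates. Reads of Lyz1 can be shared with its close paralog Lyz2. Closest to Runx3 were Prrg4 (0.149), Lcp2 (0.214), Lpcat2 (0.278) and Ifitm1 (0.315), against a median of 1.04. Closest to Tle3 were Gusb (0.0788), Fuca1 (0.0839), Zfyve28 (0.0847) and Hpcal1 (0.0915), against a median of 0.504. Of these 12 genes, Gusb, Zfyve28 and Hpcal1 were not called by edgeR. All 12 were picked for a profile near that of a called gene, so a like difference between the groups was given beforehand.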

How the data were processed

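RNA sequencing libraries of 7 soleus muscles were analysed from 1 table that the authors deposited. It holds raw read counts per gene symbol, made by the authors with TopHat2 2.0.10 and HTSeq on mm9, according to the submitters' processing notes. Next to them stands a signal on the count scale, made of the deposited counts divided by 1 size factor per library. Per the file headers, the authors' own log2 fold change, its error, p-value and adjusted p-value follow, and the submitters' notes name DESeq2 1.6.3. The annotation, strand setting and filters were not stated in the labels or headers, so counts of genes that overlap others are uncertain.

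Columns were joined to samples by the animal number in the title. From the counts, edgeR 4.0.16 (R 4.3.3) fitted group alone over all 7 libraries, with TMM normalisation, filterByExpr and the quasi-likelihood test, and p-values were adjusted over 14033 genes. All 10 genes passed the filter. The standard error is the log2 fold change divided by the root of F. Titles name 7 animals, read as separate replicates. On simulated data the same fit was checked first. Family shares were tested by exact permutation over 35 splits, 8 in all. Log2 CPM used a prior count of 2. Exon lengths are unions of GENCODE basic exons (GRCm38), and promoters are RefSeq's (GRCm38.p6). Alternatives were DESeq2 1.42.0, limma-voom 3.58.1, RLE scaling, no filter or 10 CPM in 3 libraries, the replicate number as a block, the animal number series, and leaving out each library.

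The members, the 12 further gene lists and the tests were chosen with earlier results of these data known. The genes named are the 10 members, up to 4 genes per list by smallest p, and the 4 closest profiles to each called member among genes averaging at least 20 normalised counts, leaving out predicted genes without a name. A gene of 1 list that this rule names is not reported here. Of 138 list entries all 138 were in the table, with Spi1 under its older symbol Sfpi1.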

Additional observations from a re-analysis of the deposited data

Results flagged for a closer look

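In the 4 libraries labelled mdx, replicate 3 lay apart from the other 3 in 2 of the 18 sets of values examined for a single distant library (Dixon's test at the 95% level, which chance passes in about 1 of 20 sets). The share of Tle3 among the counts of Tle1 to Tle4 was 17.5% there, against 21.8% to 22.4% in the other 3. The share of Runx1t1 among the counts of both ETO genes was 5.65% there, against 7.24% to 7.42%. Both values are the lowest of their group, farther from the libraries labelled mdx/Runx1f/f.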

How the results depend on the processing

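Over all genes 975 were called, and 2365 by DESeq2, 320 with the title number as a replicate block, 1828 with the animal number series as covariate, 1801 in animals 373 to 375 alone, 0 in animals 358 to 363 alone (2 against 2) and 8 with the columns joined by the description field. Leaving out 1 library gave between 190 and 803, with 190 without mdx/Runx1f/f replicate 2, 407 without mdx replicate 2, 263 without mdx replicate 3 and 384 without mdx replicate 4. Of the 10 genes 3 were called, 0 in animals 358 to 363 alone and 0 by the description field, and between 1 and 4 without 1 library, 1 being Runx1 alone without mdx/Runx1f/f replicate 2, mdx replicate 2 or mdx replicate 3. Runx1 kept its direction in every setting that follows the titles, with a log2 fold change of 1.77 that was not called in animals 358 to 363 alone. The block kept the calls of Runx1 and Runx3 (edgeR adjusted p = 0.0467 each) and lost that of Tle3. Same-numbered libraries did not pair, with correlations of their deviations of -0.00687, 0.241 and 0.275. Joining columns by the description field, which mixes both titles in each group, turned Runx1 to -0.80, Runx2 to -0.82, Runx3 to -0.81, Cbfb to -0.11, Tle3 to -0.45, Tle1 to 0.33 and Cbfa2t3 to 0.36, none called. In animals 373 to 375 alone Cbfb had -0.086, Epor -0.45, Myod1 -0.14 and Ttn 0.13, and Kdr had 0.047 under the replicate block and 0.057 in animals 358 to 363 alone, each with the opposite sign to the fit over all libraries. The cause was not tested. For the 9 genes other than Runx1, 123 alternative values kept their direction and side of the threshold, 15 lost a call, 5 gained one and 7, given above, turned. These values include those of animals 373 to 375 alone, with 1 library labelled mdx/Runx1f/f. Runx2, Runx3 and Runx1t1 did not pass the filter of 10 CPM in 3 libraries and have no value there. Under that filter Runx1 and Tle3 were called. Bmi1, Cebpa, Csf1r, Mmp13 and Dach2 were each called in 1 of the 7 fits without 1 library. Of the counts of calls in the 12 lists, 140 stayed close to the main count and 52 moved away from it. The differences in the 8 family shares kept their direction within each animal number series, without each library and as a log2 ratio to the rest of the family. They were not computed with the columns joined by the description field. With 7 to 13 raw counts per library labelled mdx, Runx3 is the gene whose value depth limits most.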

Other observations

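As the partner that Runx proteins share, Cbfb was set against their sum, a ratio chosen after the values were seen and given without a test. Per kilobase of exon the summed level of Runx1, Runx2 and Runx3 was 0.309, 0.407 and 0.289 times that of Cbfb in the libraries labelled mdx/Runx1f/f, against 0.141, 0.144, 0.103 and 0.0993 times in those labelled mdx. In normalised counts Runx1 stood at 1.95, 1.36 and 1.47 times Tle3 in the libraries labelled mdx/Runx1f/f, against 0.773, 0.960, 0.891 and 0.639 times in those labelled mdx. In neither ratio did the groups overlap. Transcript ratios do not give the ratio of the proteins.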
